A study of Homo sapiens with 12 samples.

Results

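The transcripts of 9 genes that write or erase N6-methyladenosine (m6A) were followed through 6 lists of RNA immunoprecipitation sequencing (RIP-seq) peaks. The genes were METTL3, METTL14, WTAP, VIRMA (named KIAA1429 in the lists), RBM15, RBM15B, ZC3H13, ALKBH5 and FTO. They were taken by gene name, whatever their peak values, from the 10822 genes that any of the lists names. Together they carried 151 of 101848 peaks. The 12 samples came from HepG2, a long-established line of human liver cancer cells, as 6 RIP samples and 6 inputs. The RIP samples were 2 for METTL16, 2 for eIF3a and 2 for eIF3b. Stable lines were made by infection with 3XFlag-METTL16 in the vector pmiRNA1 or with 3XFlag-eIF3a or 3XFlag-eIF3b in pSIN4, so every RIP came from cells overexpressing a tagged protein. The labels name a Flag antibody for the METTL16 and eIF3b samples and an eIF3a antibody for the eIF3a samples, while the deposited list names say flag for all 6, so protein and antibody cannot be told apart. Inputs were used here only as the background of the deposited peaks.

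In RIP-seq, RNA held by a protein is pulled down and sequenced beside input RNA, and a peak is a stretch of exons richer in the pull-down. m6A is the methylated adenosine that METTL3 and METTL14 place on messenger RNA as a pair, METTL3 being the catalytic subunit. WTAP binds the pair, and VIRMA, RBM15, RBM15B and ZC3H13 belong to the regulatory part of the same machinery. ALKBH5 and FTO are demethylases that remove the mark. METTL16 is a separate methyltransferase that acts on U6 RNA and on MAT2A mRNA, and eIF3a and eIF3b are subunits of the factor that helps bring the small ribosomal subunit to messenger RNA. The values below concern binding of METTL16, eIF3a and eIF3b to these transcripts and hold no measure of m6A, of protein or of transcript level. A gene with no peak may be bound below the peak threshold or be too low in the cells, and the 2 cannot be told apart. The read depth behind the peaks is unknown.

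All 9 genes carried a peak in both eIF3b lists, against 60.0% of the 10822 genes. In both METTL16 lists there were 5 of 9 (WTAP, RBM15, RBM15B, ZC3H13 and ALKBH5), against 42.6%. Both eIF3a lists held 6 of 9 (METTL3, RBM15, RBM15B, ZC3H13, ALKBH5 and FTO), against 42.4%. RBM15, RBM15B, ZC3H13 and ALKBH5, 4 of 9, were in all 6 lists, as were 25.2% of genes. These are descriptions with no test, since 2 lists against 2 cannot give an exact permutation p under 0.333. List by list, METTL16 replicate 1 held 7 of the 9 (53.8% of all genes) and replicate 2 held 6 (58.5%). eIF3a replicate 1 held 9 (75.4%) and replicate 2 held 6 (48.3%). eIF3b replicates 1 and 2 held 9 each (74.5% and 69.9%). The lists with fewer genes in all were thus also those that missed members.

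Only METTL14 had no METTL16 peak among the 9. METTL3 lacked a peak in METTL16 replicate 1, FTO and VIRMA in METTL16 replicate 2, and WTAP, VIRMA and METTL14 in eIF3a replicate 2. The pattern of METTL14, present in 3 lists, was shared by 3.60% of genes. The pattern of WTAP, present in 5 lists, was shared by 9.31%, that of METTL3 by 2.45%, that of FTO by 5.03% and that of VIRMA, present in 4 lists, by 2.37%. Within METTL16, METTL3, VIRMA and FTO therefore rested on 1 list each.

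Peaks of the 9 genes lay mostly in coding sequence. Of the 151 peaks, 107 (70.9%) had their centre in coding sequence, 36 (23.8%) in a 3′ UTR and 8 (5.3%) in a 5′ UTR. The genes differed widely around that share. All 17 RBM15 peaks, all 32 ZC3H13 peaks and all 4 VIRMA peaks were centred in coding sequence, whereas 9 of 14 FTO peaks and 14 of 35 RBM15B peaks were centred in the 3′ UTR. ALKBH5 had 5 of the 8 peaks centred in a 5′ UTR, with METTL3 and METTL14 holding the others. Coding sequence makes up 86.9% of the canonical RBM15 transcript and 13.1% of that of FTO, so the room for each kind of peak was also unequal.

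**Figure D1:**
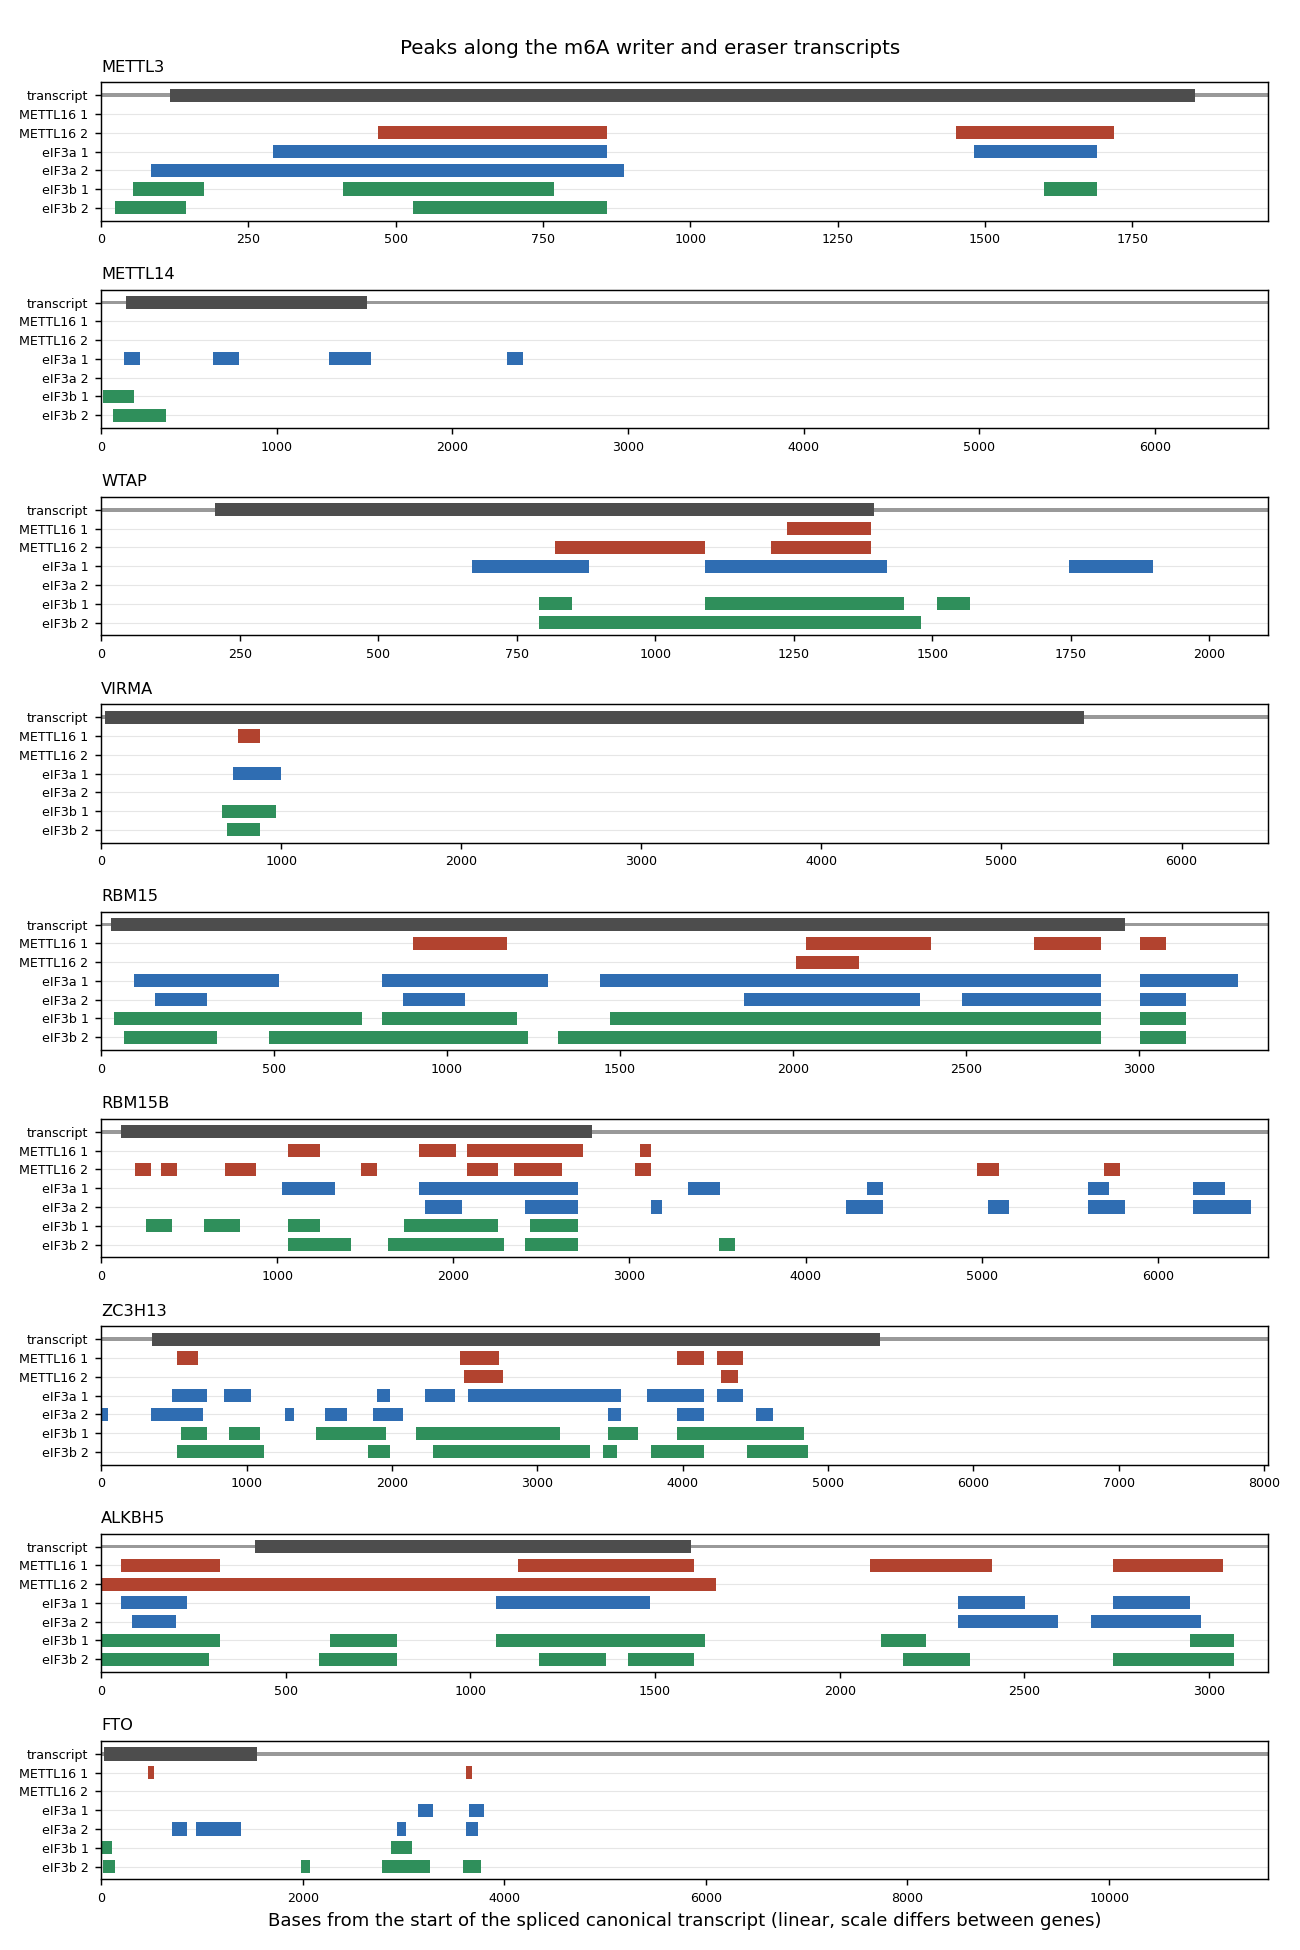
Peaks of the 9 genes in the 6 lists. The horizontal axis is the distance in bases from the start of the spliced canonical transcript, the top track shows the transcript with coding sequence as the thick dark bar, and each coloured bar is a stretch under a peak in the list named at the left (METTL16 red, eIF3a blue, eIF3b green; 1 and 2 are replicates). VIRMA peaks stack in 1 place in 4 lists, and METTL14 has no METTL16 peak. eIF3 peaks fill most of the RBM15 coding sequence except in eIF3a replicate 2, where they cover 42.4% of it.

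METTL3 (chr14:21498133-21511342, minus strand, GRCh38, 11 exons in the canonical transcript) carried peaks over its first 4 exons in 5 lists and, in 3 of them, a further peak near the end of its coding sequence. Its highest fold enrichment over input, a ratio given for each peak by the authors, was 2.20 in METTL16 replicate 2, 2.32 in eIF3a replicate 1, 17.1 in eIF3a replicate 2, 2.37 in eIF3b replicate 1 and 3.22 in eIF3b replicate 2. One library thus stood far above the other 4. The 17.1-fold value came from the only METTL3 peak of eIF3a replicate 2. That peak was 803 bases long, ran from exon 1 to exon 4 over the start codon and had a log10 p-value of -611. By smallest p-value METTL3 was 46 of the 5222 genes in that list, and its highest fold was at percentile 91.5 of those genes, meaning the percent of genes with a highest fold at or below it. In eIF3a replicate 1 it was 2058 of 8159 genes, at fold percentile 18.8.

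The start codon of METTL3 lay under a peak in eIF3a replicate 2 and in both eIF3b lists, where separate 120-base peaks in exon 1 reached 2.37-fold and 3.22-fold. METTL16 replicate 2 and eIF3a replicate 1 had no peak there. Over exons 7 to 10, peaks of 2.20-fold in METTL16 replicate 2, 1.94-fold in eIF3a replicate 1 and 1.47-fold in eIF3b replicate 1 overlapped near the end of the coding sequence. Of all METTL3 peak bases, 85 of 1132 lay opposite TOX4, a gene on the other strand, whose reads cannot be told apart there. A stretch of 238 bases in exon 3, coding bases 414 to 651, was under a peak in all 4 eIF3 lists and in METTL16 replicate 2, whose 2.10-fold peak ran over exons 3 to 4. It is printed because it is the part of METTL3 that these 5 lists shared, with the letters GGACT, the commonest form of the site that METTL3 and METTL14 methylate, in capitals.
METTL3 exon 3, chr14:21503245-21503482, minus strand: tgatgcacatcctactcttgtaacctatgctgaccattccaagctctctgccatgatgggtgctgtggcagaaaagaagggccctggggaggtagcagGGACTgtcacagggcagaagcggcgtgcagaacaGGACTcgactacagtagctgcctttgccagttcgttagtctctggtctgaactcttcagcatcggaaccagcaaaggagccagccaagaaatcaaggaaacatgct
The stretch held 2 of the 4 GGACT matches in the METTL3 transcript. The 803-base peak of eIF3a replicate 2 took in all 4 of them.

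METTL14 (chr4:118685392-118715433, plus strand, 11 exons), the partner that helps METTL3 hold RNA, was in 3 lists only. Its highest fold was 8.06 in eIF3a replicate 1, 3.36 in eIF3b replicate 1 and 3.27 in eIF3b replicate 2. In each of these lists a peak covered the start codon. It was 91 bases long in eIF3a replicate 1, 181 in eIF3b replicate 1 and 300 in eIF3b replicate 2. Both eIF3b lists had that peak alone, and 121 bases of exon 1 were common to them. eIF3a replicate 1 had 3 further peaks, and its 8.06-fold peak covered the stop codon. The 3′ UTR of METTL14, at 5131 bases the larger part of its transcript, held the centre of a single peak, 91 bases long and also in eIF3a replicate 1.

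WTAP (chr6:159725585-159756319, plus strand, 8 exons) was bound at the end of its coding sequence. Its highest fold was 2.24 and 2.92 in METTL16 replicates 1 and 2, 2.86 in eIF3a replicate 1, and 7.55 and 4.82 in eIF3b replicates 1 and 2. Both eIF3b values lay above both METTL16 values. The 7.55-fold peak was only 60 bases long, lay in the 3′ UTR and had a log10 p-value of -2.66. The longest peak of that list, 360 bases over the stop codon, reached 2.66-fold, below the 2.92 of METTL16 replicate 2. All peaks in the coding sequence began in exon 7 or exon 8, and exons 1 to 6 carried none. In exon 8, coding bases 1033 to 1183 were under a peak in both METTL16 lists, both eIF3b lists and eIF3a replicate 1. This 151-base stretch is printed as the place where METTL16 and eIF3b peaks met, with its GGACT match in capitals.
WTAP exon 8, chr6:159755453-159755603, plus strand: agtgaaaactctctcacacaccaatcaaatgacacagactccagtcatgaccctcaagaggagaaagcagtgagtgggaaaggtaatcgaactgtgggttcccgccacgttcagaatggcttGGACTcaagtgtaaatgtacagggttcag
It ended shortly before the stop codon, which peaks covered in eIF3a replicate 1 and both eIF3b lists and in neither METTL16 list.

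RBM15 (chr1:110338506-110346681, plus strand, 3 exons), an RNA-binding protein that helps direct the writer complex to its targets, was covered broadly by eIF3 peaks. METTL16 peaks covered 28.1% (replicate 1) and 6.18% (replicate 2) of its coding sequence, eIF3a peaks 80.2% and 42.4%, and eIF3b peaks 86.3% and 88.4%. Each of the 4 eIF3 lists lay above both METTL16 lists. The highest fold followed the same split less cleanly, at 5.06 and 2.08 for METTL16, 11.7 and 2.82 for eIF3a and 7.78 and 7.25 for eIF3b. The widest peaks measured 1735 bases in eIF3a replicate 1, 1556 in eIF3b replicate 1 and 1706 in eIF3b replicate 2, but 539 in eIF3a replicate 2, against 360 and 181 bases in METTL16. In METTL16 replicate 1 and all 4 eIF3 lists a peak joined exon 1 to exon 3 without exon 2 of the canonical transcript, in which the coding sequence ends. The peak that reached 11.7-fold was among them.

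RBM15B (chr3:51391285-51397908, plus strand, a single exon), a paralog of RBM15, showed the steadiest enrichment of the 9 genes. Its highest fold was 3.20 and 3.72 in METTL16, 4.46 and 5.09 in eIF3a and 3.05 and 3.67 in eIF3b. The METTL16 and eIF3b values overlapped and those of eIF3a lay above both. Both eIF3a values came from 3′ UTR peaks, the 4.46-fold peak with a log10 p-value of -3.24. So did the replicate 2 values of METTL16 and eIF3b. Among peaks centred in coding sequence the eIF3a values were instead the lowest. The highest folds there were 3.20 and 3.37 in METTL16, 2.3 and 1.93 in eIF3a and 3.05 and 2.95 in eIF3b. RBM15B peaks were many and small, 35 in all with a median width of 181 bases. The share of its 3′ UTR under peaks was 14.9% and 24.3% in eIF3a, against 1.59% and 7.87% in METTL16 and 0.0% and 2.34% in eIF3b. The share of its coding sequence ran the other way between the eIF3 subunits, 50.6% and 49.4% in eIF3b against 44.9% and 19.1% in eIF3a, with METTL16 at 39.3% and 33.8%. Of its peak bases, 390 of 3480 lay opposite DCAF1, a gene on the other strand. Since the library kit was stranded but the strand setting of the counting is not given in the sources used here, reads of DCAF1 cannot be told apart there.

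RBM15 and RBM15B were the only members with a coding stretch under a peak in all 6 lists, and those stretches are printed for that reason. They lie towards the end of each coding sequence, at coding bases 2011 to 2161 of RBM15 and 2321 to 2500 of RBM15B. Neither holds GGACT, nor ACAGAGA, the letters around the adenosine of U6 that is the METTL16 target, so no letters are in capitals.
RBM15 exon 1, chr1:110341416-110341566, plus strand: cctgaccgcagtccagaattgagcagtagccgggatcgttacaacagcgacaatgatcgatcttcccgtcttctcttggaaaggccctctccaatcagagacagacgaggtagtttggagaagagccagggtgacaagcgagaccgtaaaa
RBM15B exon 1, chr3:51393720-51393899, plus strand: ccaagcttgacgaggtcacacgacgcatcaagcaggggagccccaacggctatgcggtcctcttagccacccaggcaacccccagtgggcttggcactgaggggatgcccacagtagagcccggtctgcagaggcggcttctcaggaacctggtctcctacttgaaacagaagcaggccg
The RBM15 stretch had a GC content of 52.3% and the RBM15B stretch 62.2%. Purines, A and G, made up 56.3% and 52.8% of their bases.

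ZC3H13 (chr13:45954465-46052759, minus strand, 19 exons), a zinc finger protein that anchors the regulatory subunits, held the highest enrichment of the set. Its highest fold was 91.4 in METTL16 replicate 1, 13.5 in METTL16 replicate 2, 62.0 in eIF3a replicate 1, 3.45 in eIF3a replicate 2, 115 in eIF3b replicate 1 and 8.81 in eIF3b replicate 2. In every one of the 3 proteins replicate 1 was several times above replicate 2, so the replicates differed more than the proteins did. The peak behind each value except that of eIF3a replicate 2 included exon 12. It was 270 bases long in both METTL16 lists, 1050 in eIF3a replicate 1, and 990 and 1079 in eIF3b. eIF3a replicate 2 had 7 ZC3H13 peaks but none in exon 12, and its 3.45-fold peak covered exons 1 to 5 and the start codon. No other list had a peak on that start codon.

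A high fold was not matched by an equally small p-value. The 91.4-fold peak had a log10 p-value of -23.7, which placed ZC3H13 at 1293 of 5825 genes, and the 13.5-fold peak had -6.42, at 3650 of 6333, while the fold percentiles were 99.3 and 84.2. In eIF3b replicate 1 the 115-fold peak had -91.4 and put the gene at 630 of 8058. The 240 bases of exon 12 under a peak in both METTL16 and both eIF3b lists are printed because the highest METTL16 peaks met eIF3b peaks there. In eIF3a replicate 1, 87.9% of this stretch, coding bases 2145 to 2384, was under a peak, and in replicate 2 none of it was.
ZC3H13 exon 12, chr13:45975367-45975606, minus strand: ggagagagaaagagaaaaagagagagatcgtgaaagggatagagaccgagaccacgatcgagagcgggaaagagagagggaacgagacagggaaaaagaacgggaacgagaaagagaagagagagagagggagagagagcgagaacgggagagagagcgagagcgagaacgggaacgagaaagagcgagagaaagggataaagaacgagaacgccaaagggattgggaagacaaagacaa
The stretch is a repetitive run of A and G, with purines at 86.7%, and it holds neither GGACT nor ACAGAGA. The METTL16 peaks on it were 85.6% and 85.9% purine, the 10th highest of 13199 peaks in replicate 1 and the 7th highest of 13136 in replicate 2, against medians of 53.3% and 52.3% over all peaks of those lists. Peaks of at least 50-fold were not purine-rich as a class, with a median of 51.4% over 114 such peaks in METTL16 replicate 1 and 54.8% over 118 in eIF3b replicate 1. How reads that match several repeats were mapped is not given in the sources used here, and its part in the fold was not tested.

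Peaks of ZC3H13 that did not reach exon 12 had a fold of at most 5.80. Those that included exon 15 reached 3.77-fold and 3.78-fold in METTL16, 4.11-fold and 2.36-fold in eIF3a, and 5.80-fold and 4.24-fold in eIF3b. In exon 14, a stretch of 181 bases (coding bases 3612 to 3792) was under a peak in all 4 eIF3 lists. Exons 3 and 4 held a further one in those lists. METTL16 replicate 1 had a peak on both of these places, at 2.49-fold and 2.15-fold, and METTL16 replicate 2 had one on neither. The 3′ UTR, 2665 bases long, carried no peak in any list. The share of the coding sequence under peaks was 15.6% and 7.81% in METTL16, 46.8% and 23.2% in eIF3a and 58.8% and 53.9% in eIF3b.

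ALKBH5 (chr17:18183078-18209954, plus strand, 4 exons), the eraser that acts mainly in the nucleus, was the only member with a 5′ UTR peak in all 6 lists. Its highest fold was 4.07 and 6.67 in METTL16, 2.31 and 2.47 in eIF3a and 6.86 and 4.82 in eIF3b. Both eIF3a values lay below the other 4. The share of its exon bases under peaks was 38.2% and 46.3% in METTL16, 27.5% and 19.1% in eIF3a and 36.4% and 38.1% in eIF3b, again lowest in eIF3a. A stretch of 120 bases in the 5′ UTR, chr17:18183911-18184030, was common to all 6 lists, and a lncRNA gene on the opposite strand overlaps part of this gene (357 of 2718 peak bases). Peaks centred there reached 3.04-fold in METTL16 replicate 1, 1.60-fold and 1.55-fold in eIF3a, and 6.86-fold and 4.82-fold in eIF3b. Of the 479 and 389 bases of these eIF3b peaks, 323 and 293 lay on annotated exons of ALKBH5.

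In METTL16 replicate 2 the whole 5′ UTR and coding sequence of ALKBH5 fell under 1 peak of 1672 bases at 6.67-fold. METTL16 replicate 1 split the gene into 4 peaks, of which 2 were in the 3′ UTR at 4.07-fold and 1.96-fold. eIF3a replicate 2 had no peak on the coding sequence and covered 36.5% of the 3′ UTR, whereas eIF3a replicate 1 covered 35.4% of the coding sequence and 25.0% of the 3′ UTR. Of the 6 lists, METTL16 replicate 2 alone covered the ALKBH5 start codon. Both METTL16 and both eIF3b lists covered the stop codon.

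FTO (chr16:53701692-54158512, plus strand, 9 exons), the eraser first known for its link to body mass, was marked by 3′ UTR peaks. Its highest fold was 3.97 in METTL16 replicate 1, 3.62 and 4.69 in eIF3a, and 12.4 and 9.79 in eIF3b. Both eIF3b values were above the other 3. METTL16 peaks on FTO were small, with 60 bases in exon 3 at 1.73-fold and 61 bases in the 3′ UTR at 3.97-fold. Their log10 p-values were -2.9 and -2.83, and FTO was 5606 of 5825 genes by smallest p-value in METTL16 replicate 1. The 3.97-fold peak overlapped 3′ UTR peaks of both eIF3a lists and of eIF3b replicate 2. Both eIF3b lists had a peak from exon 1 to exon 2 over the start codon, at 12.4-fold in replicate 1 and 4.08-fold in replicate 2. No METTL16 or eIF3a list had one. The 12.4-fold peak had a log10 p-value of -9.19.

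eIF3a replicate 2 differed from the other lists on FTO as it did on METTL3. It had peaks over exons 3 to 4 at 1.71-fold and over exons 5 to 8 at 3.11-fold, the latter 448 bases long with a log10 p-value of -32.7, and 39.5% of the FTO coding sequence was under peaks. The other 4 lists with an FTO peak covered 3.96% in METTL16 replicate 1, 0.0% in eIF3a replicate 1, and 5.08% and 7.06% in eIF3b. The same list lacked METTL14, WTAP and VIRMA and the exon 12 peak of ZC3H13.

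**Figure D2:**
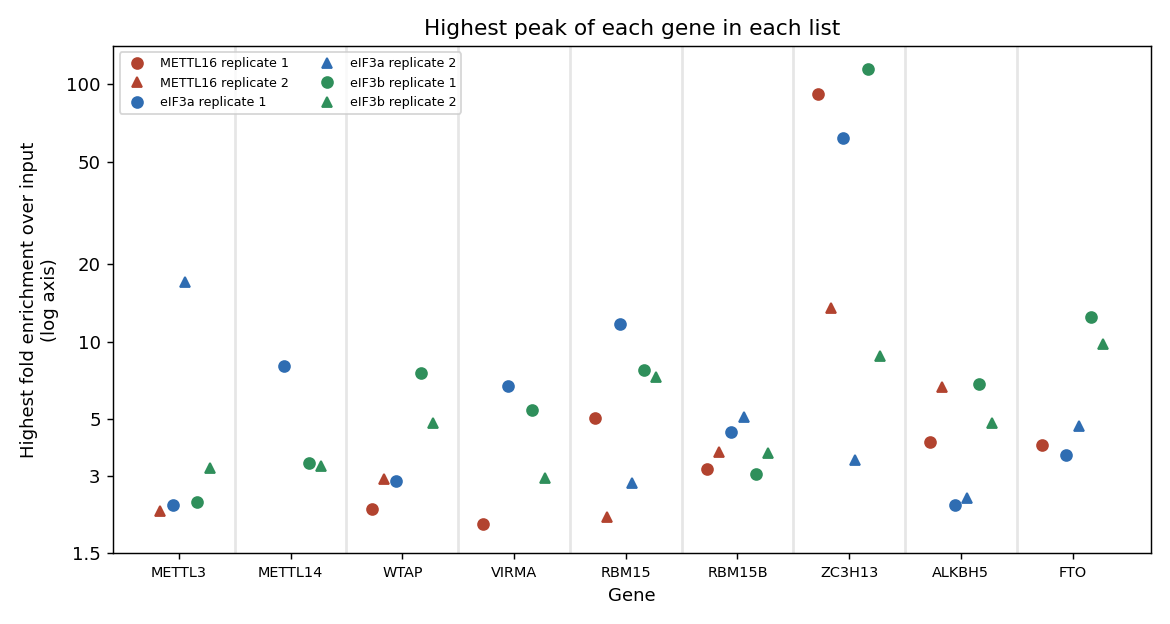
Highest fold enrichment over input (log axis) of each gene in each list where it has a peak; circles are replicate 1, triangles replicate 2, and colours give the protein. ZC3H13 reached 91.4, 62.0 and 115 in the replicate 1 lists and no more than 13.5 in the replicate 2 lists, and METTL3 stood at 17.1 in eIF3a replicate 2 against 3.22 or less elsewhere.

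VIRMA (chr8:94487689-94553529, minus strand, 24 exons), the large scaffold of the regulatory part, had exactly 1 peak in each of 4 lists, and all 4 overlapped in exon 7. The fold was 1.95 in METTL16 replicate 1, 6.72 in eIF3a replicate 1, 5.40 in eIF3b replicate 1 and 2.94 in eIF3b replicate 2. The peaks of eIF3a replicate 1 and eIF3b replicate 1 ran on into exon 8. They were also the widest, at 270 and 300 bases against 121 and 180, and had log10 p-values of -38.5 and -35.8 against -3.56 and -9.71. Purines made up between 70.0% and 81.0% of the 4 peaks, and the 76.7% of eIF3b replicate 2 was the 40th highest of 20027 peaks in that list. The coding sequence is 5436 bases long and at most 5.52% of it was under peaks in any list.

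Beside all genes, the members had wider cover in each list and, with their peaks pooled, larger coding shares. Most of their median folds were lower. These are descriptions with no test. The larger coding share leans on RBM15 and ZC3H13, whose 17 and 32 peaks were all centred in coding sequence. It does not describe each member, since 9 of 14 FTO peaks were centred in the 3′ UTR. The share of member peaks centred in coding sequence was 73.7% and 82.4% in METTL16 (all peaks 60.9% and 68.7%), 65.6% and 61.5% in eIF3a (56.8% and 58.1%) and 75.9% and 71.4% in eIF3b (61.1% and 57.7%). Averaged over replicates, METTL16 had 78.0% ± 6.13, eIF3a 63.6% ± 2.89 and eIF3b 73.6% ± 3.13 (SD, n = 2 lists each). The median share of a gene's exon bases under peaks was 7.62% and 9.12% in METTL16 (all genes 5.80% and 6.13%), 13.2% and 16.4% in eIF3a (6.39% and 6.75%) and 9.67% and 10.7% in eIF3b (8.20% and 7.02%). The 6 lists agreed in direction for both measures, but the 9 genes recur in each, so the lists are not 6 separate observations of the set.

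The median fold of member peaks was 2.70 and 3.18 in METTL16, 2.53 and 2.37 in eIF3a, and 2.85 and 3.50 in eIF3b, against 3.09, 3.40, 2.98, 2.73, 3.20 and 2.94 over all peaks of the same lists. It was below that of all peaks in 5 of 6 lists. The median fold percentile of the members with a peak was 42.6 ± 8.85 in METTL16, 55.0 ± 0.917 in eIF3a and 62.3 ± 4.90 in eIF3b (SD, n = 2 lists). High folds also occurred on genes that liver cells should lack. PTPRC, a blood cell marker, had a 14.6-fold peak in METTL16 replicate 1, and SYP, a neuronal gene, had peaks of 21.4-fold in METTL16 replicate 2 and 14.7-fold in eIF3b replicate 2. Of 6 hepatocyte markers, 5 carried a peak in at least 1 list and TTR in none. Both lists of a protein held 4 of the 6 for METTL16, 2 for eIF3a and 3 for eIF3b. Over all genes these shares were 42.6%, 42.4% and 60.0%. ALB had a peak in METTL16 replicate 2 alone, and AFP in the METTL16 lists alone. Of 4 genes of other tissues, PTPRC and SYP carried a peak and CD3E and MYH7 did not.

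**Figure D3:**
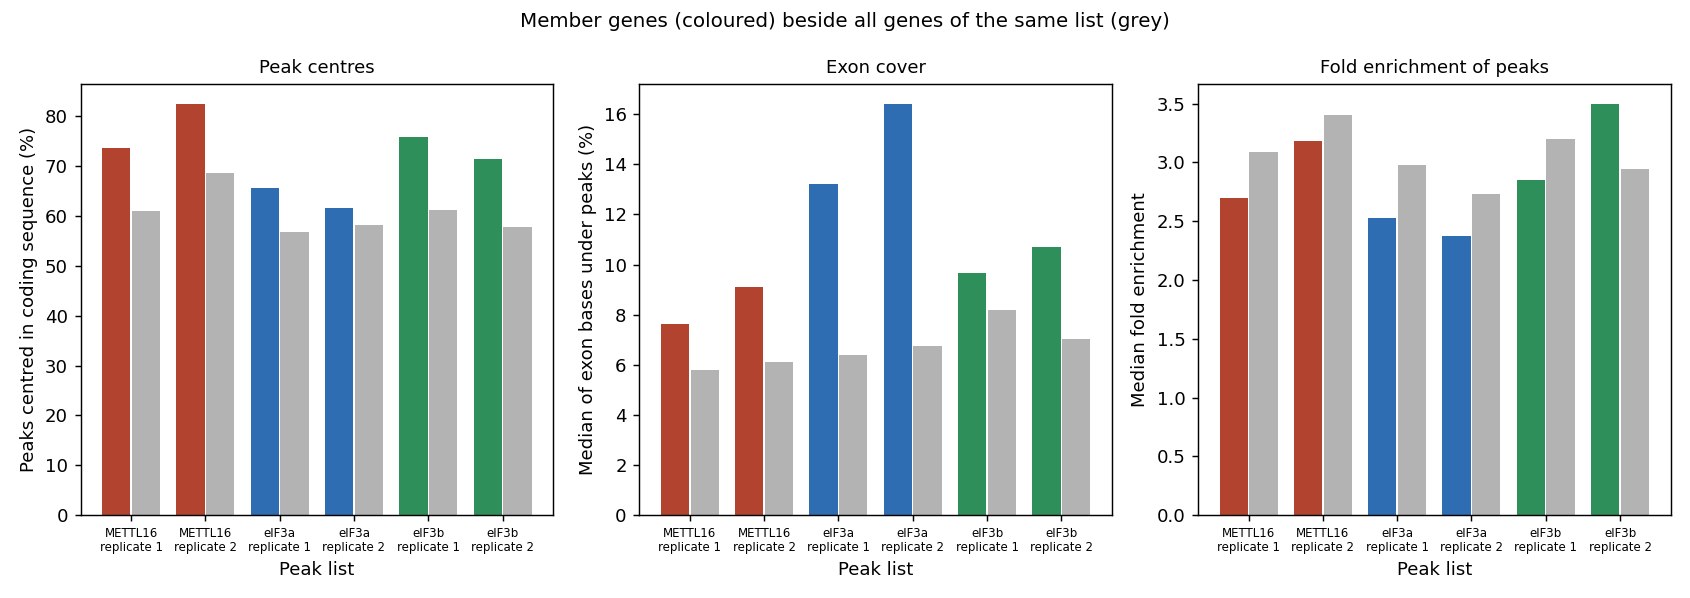
Peaks of the 9 genes (coloured bars) beside all genes (grey bars) in each list: percent of peaks centred in coding sequence, median percent of a gene's exon bases under peaks, and median fold enrichment. In the first 2 panels the coloured bar is above the grey bar in all 6 lists, and in the third it is lower in all but eIF3b replicate 2.

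Peaks of METTL16 on these transcripts often met eIF3 peaks, at about the rate of other genes. In genes bound by both proteins, 66.7% ± 21.1 (SD over 4 pairs of lists) of METTL16 member peaks overlapped an eIF3a peak by at least 1 base, against 66.8% over all such genes. For METTL16 and eIF3b the share was 75.3% ± 20.9 against 78.5%. For eIF3a and eIF3b it was 69.2% ± 7.64 against 68.6%. The share moved with both lists of a pair. Of the METTL16 replicate 1 member peaks, 14 of 15 overlapped eIF3a replicate 1 and 11 of 15 overlapped eIF3a replicate 2, while 15 of 16 overlapped eIF3b replicate 1 and 14 of 16 overlapped eIF3b replicate 2. Of the METTL16 replicate 2 member peaks, 7 of 13 and 6 of 13 overlapped eIF3a replicates 1 and 2, and 11 of 15 and 7 of 15 overlapped eIF3b replicates 1 and 2. The 4 pairs share lists, so the SD is a description.

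Counted in bases, replicates of eIF3b resembled each other most. The Jaccard index over the 9 genes, shared peak bases divided by bases under either list, was 0.267 between the METTL16 lists, 0.317 between the eIF3a lists and 0.604 between the eIF3b lists. The 12 pairs of lists of different proteins lay between 0.107 and 0.511, with eIF3a replicate 1 and eIF3b replicate 2 the most alike. On these genes, eIF3a replicate 1 was therefore closer to both eIF3b lists (0.479 and 0.511) than to its own replicate.

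Start codons lay under few peaks, of the members as of all genes. In the eIF3b lists, 3 of 29 and 3 of 28 member peaks covered a start codon, those of METTL3, METTL14 and FTO. METTL16 had 0 of 19 and 1 of 17 such peaks and eIF3a had 1 of 32 and 2 of 26. Over all peaks, 7.87% and 8.81% covered a start codon in METTL16, 5.53% and 5.14% in eIF3a and 9.72% and 6.56% in eIF3b. Stop codons were covered by 1 and 1 member peaks in METTL16, 2 and 0 in eIF3a and 2 and 2 in eIF3b. Over all peaks, the stop codon shares were 8.52% and 9.12% in METTL16, 7.38% and 5.57% in eIF3a and 9.43% and 8.69% in eIF3b. The counts are too small to read an order from.

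Letters of the 2 methylation sites were counted in the peaks on the transcript strand. GGACT was in 3 of 19 and 4 of 17 METTL16 member peaks, 9 of 32 and 5 of 26 eIF3a member peaks, and 10 of 29 and 9 of 28 eIF3b member peaks. As percentages these were 15.8%, 23.5%, 28.1%, 19.2%, 34.5% and 32.1%, against 21.7%, 23.4%, 20.3%, 26.0%, 25.8% and 21.7% over all peaks of the same lists. Member values fell on both sides of those of all peaks. A wider peak has more room for the letters. Per kilobase of peak, in the same order, member rates were 0.658, 1.32, 1.06, 1.26, 1.26 and 1.11. Over all peaks they were 1.13, 1.2, 1.06, 1.08, 1.16 and 1.04. Peaks on FTO and VIRMA held none of the 5 matches in the FTO transcript and the 10 in that of VIRMA. Those peaks covered little of either canonical transcript, at most 7.51% for FTO and 4.63% for VIRMA in any list.

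ACAGAGA was in 10.5% and 5.88% of METTL16 member peaks, 25.0% and 11.5% of eIF3a member peaks and 17.2% and 17.9% of eIF3b member peaks, against 3.27% to 5.36% over all peaks. The member share was higher in all 6 lists, and ZC3H13 accounts for part of it. ZC3H13 holds 9 ACAGAGA matches, all in coding sequence and spread over exons 10, 11, 14 and 15, and no other member has more than 3. The number of these 9 under a ZC3H13 peak was 1 and 1 in METTL16, 3 and 1 in eIF3a and 9 and 3 in eIF3b. RBM15 had 1 and 0 matches under its peaks in METTL16, 2 and 1 in eIF3a and 2 and 2 in eIF3b. RBM15B had 1 in each eIF3a list, and METTL14 had 1 in eIF3a replicate 1. FTO had 1 in eIF3a replicate 1 and 1 in eIF3b replicate 2. In METTL16 the member peaks with the letters numbered 2 of 19 and 1 of 17. The exon 12 peaks of ZC3H13 were not among them. Member peaks were also poorer in G and C than all peaks in each list (49.9% to 57.0% against 53.1% to 60.8%), and the part of base composition in these shares was not tested.

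**Figure D4:**
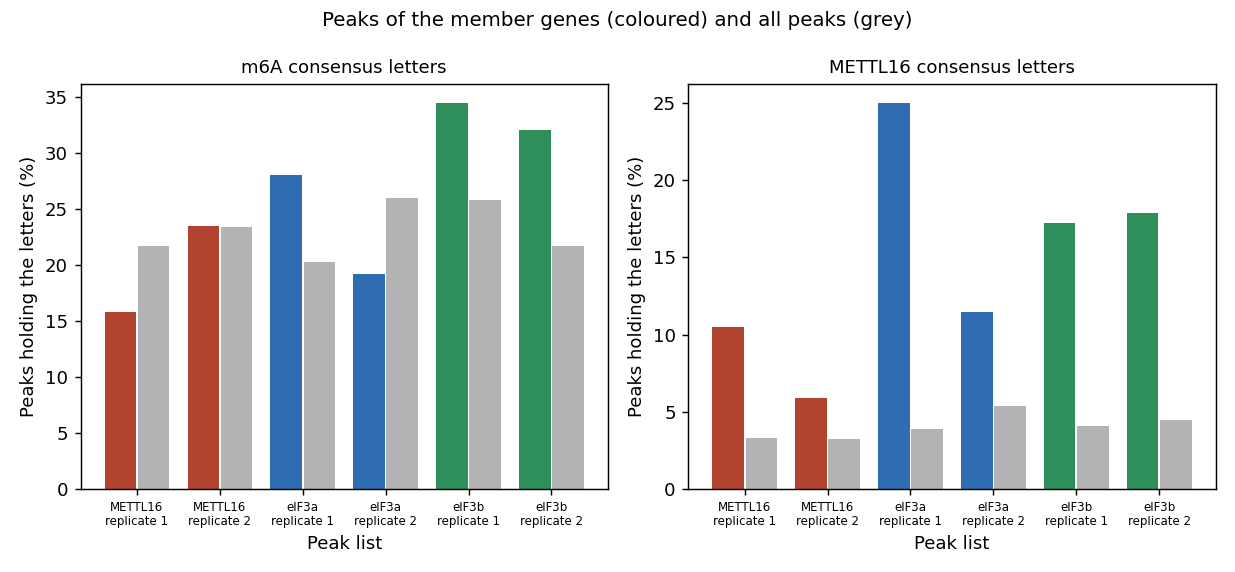
Percent of peaks that hold the letters of the m6A consensus (left) or of the METTL16 site (right) in each list, for the 9 genes (coloured bars) and for all peaks (grey bars). Coloured bars lie on both sides of the grey bars at the left and above them in all 6 lists at the right, where METTL16 rests on 2 and 1 peaks.

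Other genes of adenosine methylation were seen less evenly. Of 7 taken as a list (CBLL1, METTL16, METTL4, METTL5, TRMT112, PCIF1 and ZCCHC4), 5 had a peak in at least 1 list and METTL4 and METTL5 had none. METTL16 itself was in all 6 lists, with a highest fold of 67.5 and 38.1 in its own RIP, 10.5 and 6.53 in eIF3a and 30.5 and 16.9 in eIF3b. Its own RIP came from cells carrying a METTL16 transgene, and the part of that transgene was not tested. CBLL1, the remaining subunit of the regulatory part, was in eIF3a replicate 1 and eIF3b replicate 2 only, at 4.46-fold and 3.74-fold. TRMT112 and PCIF1 were in both METTL16 lists and in 1 eIF3 list each, TRMT112 in eIF3a replicate 1 at 1.44-fold and PCIF1 in eIF3b replicate 1 at 1.75-fold. Of 8 readers of m6A (YTHDF1, YTHDF2, YTHDF3, YTHDC1, YTHDC2 and IGF2BP1 to IGF2BP3), 6 were in all 6 lists, YTHDF2 was in the 4 eIF3 lists and YTHDC2 was in eIF3a replicate 1 alone.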

How the data were processed

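STAR alignments to GRCh38 were passed by the authors to exomePeak, run with its default settings on RIP and input. Versions, gene annotation and the pairing of RIP with input are not given in the sources used here. The deposited lists give each peak a p-value (at most 0.01), its log10 and the log10 of its false discovery rate (treated as a score), and a fold enrichment, which is a ratio of RIP to input. No counts were used. Members and lists were chosen with earlier results of these data known.

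Peaks were read with Python 3.11.15 and pandas 2.3.3, and sequences with pysam 0.24.0. Gene structures came from GENCODE 44, canonical transcript first. Of 10830 names, 10325 were current, 443 matched an older symbol and 62 did not match. Coordinates count from 1. A gene was bound when both lists of a protein held a peak with its name. Stretches in all 6 lists were chosen by rule. Those of METTL3, WTAP and ZC3H13, the purine and codon counts and the matches under peaks were chosen after their values were seen. Every member is named. Only the steps for intervals, regions and transcript positions were tested, on a made-up gene with known answers. The methods call the replicates biological. No tests were run, so all results are descriptions.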

Additional observations from a re-analysis of the deposited data

How the results depend on the processing

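Of 88 values under alternative settings for 16 results, 60 stayed within the spread between lists, or within 1.5 times for counts, and 28 moved. Some of the 60 could not have moved. For exon cover, coding share and fold percentile, leaving out 1 of 2 lists always shifts the mean by less than their SD. Those values therefore say nothing about stability. Stricter lists cut the counts most. With a fold enrichment of at least 4, 2 members were bound by METTL16, 1 by eIF3a and 5 by eIF3b, and 0 were in all 6 lists. With the 5000 smallest p-values per list, 2 were bound by METTL16, 4 by eIF3b and 2 were in all 6 lists. A peak in either replicate gave 8 for METTL16. Finding members by position gave the same counts. The median percent of exon bases under METTL16, eIF3a and eIF3b peaks was 16.8, 6.51 and 8.31 at a fold of at least 4, 13.6, 12.0 and 16.7 with 5000 peaks, and 14.8, 25.5 and 22.7 on the canonical transcript alone. The coding share was 87.5% (METTL16) and 51.4% (eIF3a) at a fold of at least 4, 88.9%, 80.0% and 90.3% with 5000 peaks, and 73.9% (eIF3a) and 83.9% (eIF3b) when counted in bases. Requiring a 50% overlap lowered the share of eIF3a peaks meeting eIF3b peaks to 58.3%. Overlap within same-numbered lists only, as a replicate block, was 69.7%, 70.2% and 68.1% for METTL16 with eIF3a, METTL16 with eIF3b and eIF3a with eIF3b. At a fold of at least 4, METTL16 with eIF3a and eIF3a with eIF3b had no value, since no member was bound by both. Ranking by p-value moved the median percentile to 54.5, 72.8 and 75.7. Leaving out each list in turn gave 6 to 7 members bound by METTL16, 6 to 9 by eIF3a (9 without replicate 2, the list that lacks METTL14, WTAP and VIRMA) and 9 by eIF3b, and 4 to 5 in all remaining lists. The cause of these shifts was not tested, beyond stricter lists holding fewer peaks.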
